A study of Rattus norvegicus with 6 samples.

Results

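Of the 35790 rows in the deposited gene table, 91 named genes and loci had at least 20 read counts in every apical library of outer hair cells and a count of 0 in every basal library. They were chosen on these counts alone, so their absence from basal libraries is the rule and not a finding, and no test of them between turns is read below. Before any row was dropped, 136 rows met the counts, which is 0.38% of the table. Dropped were 39 unannotated loci, the decoy interleukin 1 receptor Il1r2, and 5 genes of the motile axoneme (Hydin, Ccdc114, Drc1, Spag6 and Rsph1). Among the 9363 remaining rows with at least 20 counts in each apical library, the 91 genes are 0.972%. The mirror rule, at least 20 counts in every basal library and 0 in every apical one, found 13 genes (0.0363% of the table), 0.185% of the 7044 rows that reached 20 counts in each basal library.

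The libraries were made from outer hair cells of Sprague-Dawley rats, wild type and at postnatal day 9, with 3 libraries from the apical turn of the cochlea and 3 from the basal turn. Each library held 30 cells, picked by eye after 10 min in 1 mg/ml collagenase IV, and the study asked how outer hair cells of the apical and basal turns differ in gene expression. All animals shared strain, age and genotype. Whether each library came from its own animals is not stated, so a p-value below speaks only for how these 6 libraries vary, and that variation may be technical. In pools of cells, fewer cells that carry a transcript and less of it per cell cannot be told apart.

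Outer hair cells are the electromotile sensory cells of the cochlea, which amplify the vibration of the basilar membrane. The apical turn is tuned to low and the basal turn to high frequencies, and in the rodent cochlea maturation proceeds from base to apex, so that apical cells trail basal cells in the first postnatal weeks. Hair cells carry a bundle of actin-filled stereocilia and, beside it, a kinocilium, a true cilium that cochlear hair cells lose as they mature.

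The libraries held between 16511675 and 23140976 gene counts. Apical libraries held 22849274, 18617323 and 23140976, and basal libraries 18459189, 16511675 and 20301499. A count of 20 thus equalled 0.864 to 1.07 CPM (counts scaled by library total) in apical libraries. Over the 55272363 basal counts together, a count of 0 allows up to 3 counts, or 0.0543 CPM, and this limit covers counting error only. Outer hair cell markers summed to 15606, 21558 and 6911 CPM in apical libraries and 55063, 16350 and 6537 CPM in basal libraries, with basal replicate 1 the highest, and all 10 of those matched had counts in both groups. Ocm2 gave most of each sum, with 257630, 305332 and 112386 counts in apical libraries and 988572, 241732 and 116710 in basal libraries. Of 9 outer hair cell markers in the edgeR fit described below, 6 had a positive log2 fold change (apical over basal, median 0.85). In 2 of the 9 (22.2%, against 10.4% of all genes tested) every apical library was above every basal one, and in 0 the reverse held. General hair cell markers summed to 31261, 29990 and 20201 CPM in apical libraries and 20973, 10274 and 3801 CPM in basal libraries, and all 16 of them had counts in both groups. Schwann cell markers summed to 239, 397 and 251 CPM in apical libraries and 3282, 34803 and 23278 CPM in basal libraries, so basal replicates 2 and 3 carried most of them. Sums of pillar and Deiters cell markers went the other way. They were 3550, 4011 and 9308 CPM in apical libraries and 1801, 3322 and 2619 CPM in basal libraries. Those of the greater epithelial ridge and border cells did so too, with 3751, 2161 and 7451 against 765, 2045 and 1257 CPM. S100a1 and Tectb were the largest rows of these 2 sums in each apical library. S100a1 had 52797, 60078 and 194949 counts in apical libraries and 27044, 18954 and 9925 in basal libraries. S100b, on the same list, had 10920, 10354 and 3163 in apical libraries and 3745, 24191 and 36718 in basal libraries. Every apical library was above every basal one in 2 of 15 pillar and Deiters markers in the fit (13.3%). The same held for 4 of 10 ridge and border markers (40%), and the reverse for 0 on either list. None of the 91 genes is on any of the 15 cell type marker lists examined. The lists are short, and members are 0.972% of the genes with at least 20 counts in each apical library. Hydin, on the list of multiciliated epithelia, meets the counts but was dropped.

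RefSeq promoters were at hand for 61 of the 91 genes, each from 250 bases before to 50 bases after the annotated start on the build GRCr8. The 5 printed here belong to the members with the highest smallest apical count among those with an entry, and they show how unlike these start regions are. Capitals mark CCGCCC (a GC box of Sp-type factors) or TATAAA, each searched on both strands, so that GGGCGG and TTTATA are the same letters on the other strand. Ica1l lies at chr9:68963643-68963942 on the minus strand, Nptx2 at chr12:15161996-15162295 on the minus strand, Galnt14 at chr6:27507628-27507927 on the plus strand, Kif12 at chr5:81618320-81618619 on the minus strand and Slc25a48 at chr17:8172327-8172626 on the minus strand. Each sequence reads 5′ to 3′ along the gene as annotated on GRCr8. The deposited table, on a build that is not named, lists Galnt14 on the minus strand.
Ica1l: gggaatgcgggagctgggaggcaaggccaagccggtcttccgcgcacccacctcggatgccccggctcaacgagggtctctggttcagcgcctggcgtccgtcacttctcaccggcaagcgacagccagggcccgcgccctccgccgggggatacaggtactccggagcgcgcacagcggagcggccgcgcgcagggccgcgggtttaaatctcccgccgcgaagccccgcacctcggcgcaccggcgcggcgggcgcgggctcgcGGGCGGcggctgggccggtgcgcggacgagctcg
Nptx2: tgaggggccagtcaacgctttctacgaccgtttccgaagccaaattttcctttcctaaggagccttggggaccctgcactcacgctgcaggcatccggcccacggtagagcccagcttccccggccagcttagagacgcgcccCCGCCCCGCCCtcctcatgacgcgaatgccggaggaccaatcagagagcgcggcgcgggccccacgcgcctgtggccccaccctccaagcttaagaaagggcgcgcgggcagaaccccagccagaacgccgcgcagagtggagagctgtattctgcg
Galnt14: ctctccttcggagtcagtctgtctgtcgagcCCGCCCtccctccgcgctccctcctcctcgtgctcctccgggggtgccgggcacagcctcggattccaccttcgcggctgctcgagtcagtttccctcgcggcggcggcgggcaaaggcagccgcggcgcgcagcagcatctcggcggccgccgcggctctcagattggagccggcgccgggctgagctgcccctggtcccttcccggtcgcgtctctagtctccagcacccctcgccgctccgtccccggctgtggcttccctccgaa
Kif12: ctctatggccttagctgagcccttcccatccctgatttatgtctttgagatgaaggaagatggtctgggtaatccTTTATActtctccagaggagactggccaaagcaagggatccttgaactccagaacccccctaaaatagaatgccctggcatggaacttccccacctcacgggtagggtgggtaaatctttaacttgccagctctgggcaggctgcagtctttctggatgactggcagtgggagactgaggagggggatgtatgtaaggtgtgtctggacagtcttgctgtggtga
Slc25a48: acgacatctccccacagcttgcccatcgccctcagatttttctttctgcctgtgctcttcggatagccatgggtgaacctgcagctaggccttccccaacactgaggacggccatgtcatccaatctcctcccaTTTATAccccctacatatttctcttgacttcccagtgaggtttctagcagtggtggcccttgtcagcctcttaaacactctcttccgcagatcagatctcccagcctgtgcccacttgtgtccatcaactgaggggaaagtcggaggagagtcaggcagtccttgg

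The promoters of Ica1l, Nptx2 and Galnt14 were rich in G and C (75.7%, 65.7% and 72.3%) with 47, 28 and 37 CpG dinucleotides, the form usual for broadly used promoters. Those of Kif12 and Slc25a48 had 51.3% and 53.7% G and C and 1 and 6 CpG dinucleotides. Over the 61 promoters the median was 56.3% G and C with 13 CpG dinucleotides, against 61.3% and 22 over 6899 other genes with at least 20 counts in each apical library. CCGCCC was present in 34 of the 61 (55.7%), against 65.0% of the other genes and 34.9% of all 27457 promoters in the table. TATAAA was present in 6 (9.84%), against 6.32% of the other genes and 14.3% of all promoters.

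Motifs of factors known in hair cells or ciliated cells were searched in the same windows. The E-box CAGCTG, a form bound by Atoh1-type factors, was in 14 of the 61 (23.0%), against 15.2% of the other genes and 15.1% of all promoters. GTTGCC, the core of the X-box bound by the RFX factors of ciliated cells, was in 6 (9.84%), against 12.7% and 12.2%. ATTAAT, the core of POU4 sites, was in 1 (Zfp654, 1.64%), against 2.04% and 5.38%. The GATA motif AGATAA was in 3 (4.92%), against 5.44% and 11.3%, and the forkhead motif TGTTTAC was in 0 of the 61, against 1.93% and 3.76%. A match is a description of letters in a window and not a site. The letters may occur outside the windows, which were not searched.

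The 91 genes together took 0.0480%, 0.0835% and 0.0647% of all gene counts of the apical libraries, a mean of 0.0654% ± 0.0178 (SD, n = 3). They were low: the median of their mean CPM was 5.72, against 36.0 for the 9272 other annotated genes with at least 20 counts in each apical library. Per gene length, in the deposited FPKM (scaled to gene length and library total), the medians were 3.62 and 16.5. Mean FPKM ran from 0.321 for Tenm2 to 39.3 for the uncharacterised locus AABR07050061.1. The counts of the 3 libraries of a turn were also pooled and divided by their pooled total, with 3 counts taken as the basal limit. The apical level was 27.9 times this limit for Cyp3a62, the lowest, and 605 times for Ica1l, the highest, with a median of 106. These values restate the counts that chose the genes and are no result about the turns. The limit covers counting error only, and not genes that a library lists at 0 although they are well counted elsewhere.

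Regulators of transcription and RNA made up 11 of the 91 genes, with mean FPKM from 0.396 (Tfcp2l1) to 9.65 (Nfe2). Nfe2, a basic leucine zipper factor best known from megakaryocytes and red cell precursors (ENSRNOG00000036837, chromosome 7, minus strand, positions 144872747 to 144880092 on the unnamed build of the deposited table), had 178, 240 and 628 counts in apical replicates 1, 2 and 3 and 0 in each basal library. Gfi1b, a zinc finger repressor of blood cell development and the paralogue of the hair cell factor Gfi1 (ENSRNOG00000011353, chromosome 3, minus strand, 7190722 to 7203420), had 155, 516 and 129 counts in apical libraries and 0 in each basal library. They averaged 9.65 ± 6.07 FPKM for Nfe2 and 7.91 ± 7.37 FPKM for Gfi1b (SD, n = 3), but the library with the most reads was replicate 3 for Nfe2 and replicate 2 for Gfi1b.

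A further 3 RNA-binding proteins stood beside these factors. Lin28b, which blocks the maturation of let-7 microRNAs, had 69, 273 and 79 counts in apical libraries and 0 in each basal library. Khdrbs2, a splicing regulator best known from the brain, had 124, 244 and 74, against 0 in each basal library. Rbm47, a cofactor of C-to-U RNA editing in epithelia, had 33, 194 and 332, against 0 in each basal library. Lin28b and Khdrbs2 were highest in replicate 2, and Rbm47 was lowest in replicate 1. Ovol2, a zinc finger repressor that keeps epithelial identity, had 21, 253 and 213 counts in apical libraries and 0 in each basal library, so that replicate 1 barely met the rule. For this role group the ratio of the highest to the lowest apical CPM had a median of 4.71, and 7 of the 11 genes had a ratio over 4.

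Genes of transmitter synthesis, synapses and the senses were 9. Nptx2, a secreted pentraxin that clusters AMPA-type glutamate receptors (ENSRNOG00000001006, chromosome 12, minus strand, 12013911 to 12025549), was even between apical libraries, with 231, 327 and 299 counts in apical libraries and 0 in each basal library, or 7.94 ± 2.21 FPKM (SD, n = 3). Dbh, which converts dopamine to noradrenaline, had 54, 195 and 588 counts in apical libraries, and Tph2, the neuronal enzyme of serotonin synthesis, had 45, 172 and 209, both against 0 in each basal library. Both were lowest in replicate 1. None of their pathway neighbours examined met the rule. Tyrosine hydroxylase Th and the Tph2 paralogue Tph1 were listed at 0 in all 6 libraries. Ddc, the decarboxylase of both pathways, had 0, 213 and 41 counts in apical libraries and 0, 0 and 112 in basal libraries. Pnmt, of the Dbh pathway, had 0, 0 and 60 counts in apical libraries and 0 in each basal library. Slc6a4, of the Tph2 pathway, had 79, 0 and 0 counts in apical libraries and 0, 0 and 123 in basal libraries. The vesicular monoamine transporter Slc18a2 had 380, 70 and 151 counts in apical libraries and 398, 0 and 0 in basal libraries.

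Rd3, which in photoreceptors binds and inhibits the retinal guanylate cyclases, had 86, 221 and 660 counts in apical libraries and 0 in each basal library. Of its cyclase partners, Gucy2d was at 0 in all libraries and Gucy2f had 0, 0 and 64 counts in apical libraries and 0 in each basal library. Olr1204, an odorant receptor, had 39, 494 and 62 counts in apical libraries and 0 in each basal library, and carried the largest relative SD of all 91 genes, 136% of its mean CPM. Rtp1, a chaperone that brings odorant receptors to the membrane, had 37, 131 and 79 counts in apical libraries, against 0 in each basal library. Both were highest in replicate 2. Lingo3, a leucine-rich repeat membrane protein, had 93, 225 and 280 counts in apical libraries and 0 in each basal library. Sarm1, the NAD-cleaving enzyme of axon degeneration, had 84, 66 and 124, against 0 in each basal library, and was among the even ones.

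Channels and transporters were 7. Slc7a14, a lysosomal transporter of cationic amino acids known from the retina, had 383, 108 and 224 counts in apical libraries and 0 in each basal library. Gja3, the lens connexin, had 57, 177 and 432, against 0 in each basal library. Slc7a14 was highest in replicate 1 and Gja3 in replicate 3. Slc25a48, a mitochondrial carrier, was even, with 149, 151 and 204 counts in apical libraries and 0 in each basal library, and Catsperd, a subunit of the sperm calcium channel, had 98, 132 and 134, against 0 in each basal library. Of the other subunits of that channel, Catsper1 and Catsper4 were at 0 in all libraries, whereas Catsper2 had 1289, 1484 and 141 counts in apical libraries and 1298, 749 and 286 in basal libraries. Nipal3, a member of a family of magnesium transporters, had 180, 129 and 36 counts in apical libraries and 0 in each basal library.

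Motor, cytoskeleton and cilium genes were 8, and 4 of them had at least 100 counts in every apical library. Myo3b, a class III myosin that in mice reaches the tips of stereocilia (ENSRNOG00000030022, chromosome 3, plus strand, 56355431 to 56584547), had 237, 32 and 145 counts in apical libraries and 0 in each basal library, or 1.82 ± 1.28 FPKM (SD, n = 3). Its paralogue Myo3a had 1285, 1540 and 1331 counts in apical libraries and 1269, 980 and 192 in basal libraries. Per length, Myo3b was lower in apical libraries than Myo3a, which averaged 13.5 ± 3.07 FPKM in apical and 9.42 ± 6.55 FPKM in basal libraries (SD, n = 3 each). Espnl, an espin-like cargo of class III myosins, had 4410, 1779 and 893 counts in apical libraries and 370, 87 and 64 in basal libraries, groups that do not overlap. Its log2 fold change of 3.39 (SE 1.00, apical over basal) did not pass edgeR's quasi-likelihood test (adjusted p = 0.438).

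Cfap45, a protein inside the microtubule doublets of motile cilia, was the most even of the 91 genes, with 115, 110 and 130 counts in apical libraries and 0 in each basal library, a relative SD of 8.08%. Nme9, a thioredoxin-domain protein listed among cilium genes, had 114, 76 and 73, Spaca9, a microtubule-associated protein first described in sperm, had 153, 178 and 127, and Kif12, a kinesin, had 153, 258 and 160 counts in apical libraries, each against 0 in every basal library. All 3 varied less between apical libraries than Myo3b. Katnal2, a katanin-like protein of microtubule severing, had 133, 214 and 314 counts in apical libraries and 0 in each basal library. Carmil3, a regulator of actin capping, had 103, 27 and 243, against 0 in each basal library, and Fam92b, a ciliary base protein with a membrane-curving domain, had 46, 33 and 227, against 0 in each basal library. The last 2 were highest in replicate 3 and lowest in replicate 2.

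Signalling, adhesion and trafficking genes were 13 and hold the member of highest mean CPM. Ica1l, a relative of the islet autoantigen ICA69 with a domain that binds curved membranes (ENSRNOG00000017258, chromosome 9, minus strand, 66790047 to 66845403), had 1037, 563 and 520 counts in apical libraries and 0 in each basal library, or 19.5 ± 6.95 FPKM (SD, n = 3). Its paralogue Ica1 was present in both turns, with 1481, 732 and 1999 counts in apical libraries and 1075, 807 and 591 in basal libraries. Of the rest, Dedd, a death effector domain protein, had 223, 309 and 94 counts in apical libraries, and Rassf9, a Ras association protein of recycling endosomes, had 86, 210 and 351, both against 0 in each basal library. Rab11fip5, an effector of Rab11 in endosome recycling, had 210, 114 and 110, against 0 in each basal library. Rasgrp1, an exchange factor that activates Ras, had 85, 183 and 221, and Amer2, a regulator of Wnt signalling, had 22, 231 and 78, both against 0 in each basal library. In this group 8 of 13 genes were highest in replicate 2. Pla2r1, a receptor of secreted phospholipases, was even, with 56, 68 and 59 counts in apical libraries and 0 in each basal library.

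Enzymes and secreted proteins were 15. Galnt14, which starts mucin-type O-glycosylation (ENSRNOG00000007951, chromosome 6, minus strand, 24770317 to 24985716), had 181, 368 and 716 counts in apical libraries and 0 in each basal library, or 8.52 ± 5.02 FPKM (SD, n = 3). Pdxk, the kinase that makes the active form of vitamin B6, had 28, 195 and 309, against 0 in each basal library. Spag11b, a defensin-like peptide of the epididymis, had 68, 321 and 86, against 0 in each basal library, and it had the highest mean FPKM of this group. Replicate 1 was the lowest in CPM for all 3 genes. Mzb1, a chaperone of antibody-secreting cells, had 270, 148 and 172 counts in apical libraries, and Acp5, the tartrate-resistant phosphatase of osteoclasts, had 52, 219 and 137, both against 0 in each basal library. Gls2, the liver-type glutaminase, had 113, 94 and 37, against 0 in each basal library.

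Protein turnover genes were 7, mostly parts of ubiquitin ligases. Fbxo36, an F-box protein, had 141, 109 and 519 counts in apical libraries and 0 in each basal library. Espl1, the separase that cuts cohesin when chromosomes part, had 25, 222 and 216, against 0 in each basal library. Cochlear hair cells are postmitotic at this age. Rnf217, a ring-type ubiquitin ligase, had 119, 62 and 53, against 0 in each basal library. Replicate 3 stood far above the others for Fbxo36, and replicate 1 far below for Espl1.

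The largest role group, 21 genes and loci, is little characterised. Ccdc116, a coiled-coil protein (ENSRNOG00000001860, chromosome 11, plus strand, 88095170 to 88098252), had 481, 684 and 423 counts in apical libraries and 0 in each basal library, or 12.9 ± 5.07 FPKM (SD, n = 3). LOC500227 had 403, 529 and 316, against 0 in each basal library. These and Ica1l had the highest smallest counts of the 91 genes. AABR07071661.1 had 222, 122 and 111 and RGD1563323 had 31, 67 and 45, both against 0 in each basal library. At the other end of evenness, the locus Rn50_X_0641.4 had 27, 190 and 678 counts in apical libraries and 0 in each basal library, a ratio of 24.8 between its highest and lowest CPM. Fam227a had 134, 683 and 77 and RGD1563986 had 181, 442 and 43, both against 0 in each basal library and both highest in replicate 2. AABR07050061.1 had 263, 175 and 375, against 0 in each basal library, and its 39.3 ± 11.1 FPKM was the highest of all 91 genes (SD, n = 3).

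GO annotations were present for 73 of the 91 genes (80.2%, against 91.9% of the other genes), and they spread over many functions. Channel or transporter terms were carried by 8 of the 73 (10.96%, against 7.46% of the other annotated genes) and transcription terms by 8 (10.96%, against 17.3%). RNA terms were carried by 3 (4.11%, against 14.7%), synapse and neuron projection terms by 3 (4.11%, against 11.7%) and cell cycle or DNA repair terms by 2 (2.74%, against 10.1%). These are descriptions of 73 genes, with no enrichment test. In the deposited coordinates, 7 pairs of the 91 lay within 1000000 bases of each other, the closest being Gfi1b and Spaca9 at 66433 bases with 1 gene between them. The symbols held no large family: at most 3 genes shared a stem (Fam227a, Fam174b and Fam92b).

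The spread between apical libraries was not set by the rule beyond the minimum of 20 counts, and it is described here with no test. The ratio of the highest to the lowest apical CPM had a median of 3.49 over the 91 genes, against 2.08 over the 9272 other genes. It was over 4 for 40 genes (44.0%, against 18.5%), between 2 and 4 for 31, and under 2 for 20 (21.98%, against 46.5%). The ratio differed with count level, so the genes are also given by level. The minimum of 20 counts bounds the ratio most in the lowest bin. At a mean of 20 to 50 counts, the median ratio was 1.95 for 7 members and 2.12 for the others. At 50 to 100 counts it was 3.45 for 28 members and 2.81, at 100 to 200 it was 4.10 for 37 members and 3.05, and at 200 to 500 it was 4.03 for 17 members and 2.67. In the highest bin, 500 to 1000, it was 2.01 for 2 members and 2.26 for the others. Replicate 2 was the highest apical library in CPM for 47 of the 91 genes (51.6%), against 32.7% of the other genes, replicate 3 for 26 (28.6%, against 33.3%) and replicate 1 for 18 (19.8%, against 33.9%). By level, replicate 2 was highest for 57.1% of members and 45.8% of the others at a mean of 50 to 100 counts, for 54.1% and 38.9% at 100 to 200, and for 35.3% and 36.6% at 200 to 500. It had the fewest counts of the apical libraries.

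**Figure D1:**
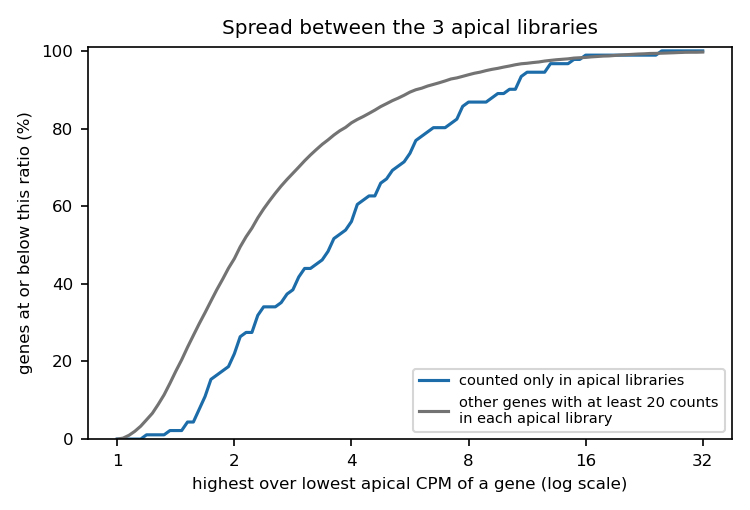
Cumulative percent of genes against the ratio of the highest to the lowest CPM among the 3 apical libraries (log axis), for the 91 genes and for 9272 other genes with at least 20 counts in each apical library. The curve of the 91 genes lies to the right, with medians of 3.49 and 2.08.

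How often a gene is listed at 0 although it is well counted elsewhere differed between libraries. Of genes with at least 20 counts in both other libraries of the group, apical replicate 1 listed 1.22% at 0, apical replicate 2 12.1% and apical replicate 3 1.59%. Basal replicate 1 listed 12.6% at 0, basal replicate 2 13.9% and basal replicate 3 1.14%. Of the 9363 genes with at least 20 counts in each apical library, 1019 were at 0 in basal replicate 1, 1393 in basal replicate 2 and 224 in basal replicate 3, and 91 were at 0 in all of them. Without basal replicate 3 the rule would find 443 genes, without apical replicate 2 it would find 257, without basal replicate 1 169 and without apical replicate 1 141. Basal replicate 3, which had 15668 genes with a count against 11880 and 11244 in the other basal libraries, was thus the library whose removal changed the number most. The part of these differences between libraries in the list of 91 genes was not tested.

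The share of genes without basal counts was higher at lower apical levels. A basal sum of 0 was found for 7 of 100 genes with an apical mean of 20 to 50 counts (7.0%), for 28 of 360 at 50 to 100 (7.78%), for 37 of 815 at 100 to 200 (4.54%), for 17 of 2140 at 200 to 500 (0.794%), for 2 of 2034 at 500 to 1000 (0.0983%) and for 0 of 3914 above. Under the mirror rule the shares were 0 of 36, 0 of 126, 3 of 357 (0.840%), 6 of 1491 (0.402%), 4 of 1774 (0.225%) and 0 of 3260. Above 500 counts, both kinds were rare. Of the 9363 genes, 24 had 1 basal count, 16 had 2 or 3, 24 had 4 to 10, 291 had 11 to 100, and 8917 (95.2%) had more than 100.

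**Figure D2:**
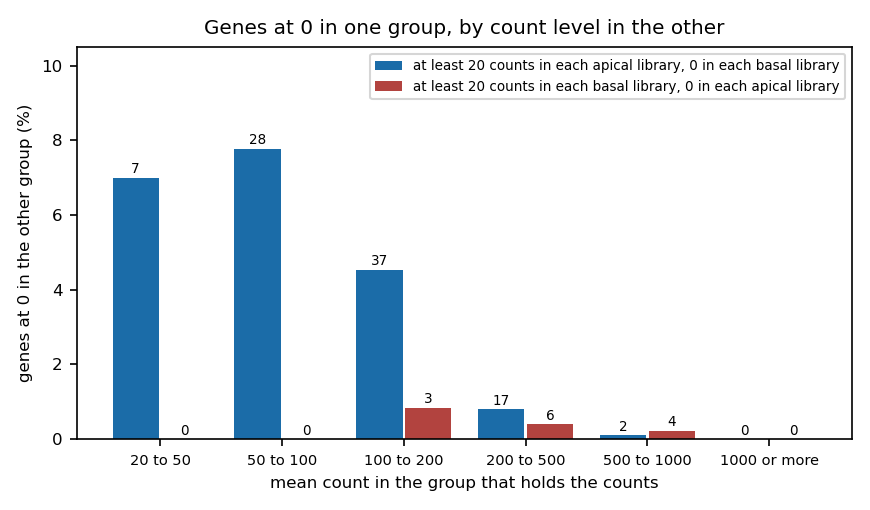
Percent of genes with 0 counts in all libraries of the other turn, by mean count in the turn where every library had at least 20; bars for apical-detected genes stand left of those for basal-detected genes, and the numbers above are gene counts. Shares of 4.54% to 7.78% under a mean of 200 counts are seen for apical-detected genes, against 0% to 0.840% for basal-detected genes.

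The limits of the rule are narrow. Just inside were Cyp3a62, a drug-metabolising cytochrome, with 22, 55 and 21 apical counts, Ovol2 with 21, 253 and 213, Amer2 with 22, 231 and 78, the inositol phosphate kinase Ip6k3 with 23, 100 and 35, and the organic anion exporter Abcc3 with 165, 23 and 63, all against 0 in each basal library. Just outside for a lone basal count were genes with far more apical reads. The neuropeptide precursor Gal had 486, 724 and 4887 counts in apical libraries and 0, 0 and 1 in basal libraries, and the steroid dehydrogenase Hsd17b14 had 1278, 1376 and 1752 in apical libraries and 1, 0 and 0 in basal libraries. Kcne1, a subunit of potassium channels, had 833, 551 and 70 in apical libraries and 1, 0 and 0 in basal libraries. Just under the minimum were March11 with 120, 19 and 109, Tnni3k with 18, 293 and 58, Krt81 with 18, 106 and 115, Fam84b with 55, 18 and 104 and Tmtc1 with 173, 246 and 17 counts in apical libraries, all against 0 in each basal library.

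For some members the 0 itself is uncertain. The kit named in the labels does not mark strand, and 12 of the 91 genes overlap another row, 8 of them a row with counts. Nipal3 overlaps Stpg1, which had 679 basal counts, Iqck overlaps Knop1, which had 50, and LOC102555023 overlaps Klhl14, which had 3, all on the other strand. Fam174b overlaps 2 loci, 1 on its own strand and 1 on the other, which together had 7 basal counts. Zfp446 has a further row of the same symbol on the same strand with 162 basal counts, so its absence from the basal turn depends on how reads were assigned. Olr1204, Cyp3a62, Tspy26 and Spag11b belong to families with close copies, and the sources used here do not give how shared reads were counted.

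In edgeR's quasi-likelihood fit over 13507 genes, no gene passed an adjusted p of 0.05 (0.0% called), while 811 genes (6.0%) had an unadjusted p under 0.05 and DESeq2 called 664. All 91 members were in the fit, since the rule made them pass the filter on low counts, and 0 of them passed, while DESeq2 gave 90 of them an adjusted p under 0.05. Nothing is read from their test or from their separation, which the rule fixes, and 10.4% of all genes tested had every apical library above every basal library, against 5.4% with every basal library above. At an unadjusted p under 0.05, 3.88% of all genes tested were higher in apical libraries, as were all 91 members by the way they were chosen. In the authors' deposited table, 55 of 20038 genes with an adjusted p (0.274%) were higher in apical cells at an adjusted p under 0.05, and 8 of them are members. In the authors' deposited table, Ica1l had an adjusted p of 9.03e-05, Ccdc116 of 0.000722, LOC500227 of 0.00381, Galnt14 of 0.00398, Nfe2 of 0.0157, Rd3 of 0.0259, Nptx2 of 0.0436 and Gfi1b of 0.0445. All 8 rank among the 10 members of highest mean CPM, and the same counts chose them.

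Relatives of the members were often present in both turns. Of 31 members with a paralogue examined, 16 had a paralogue with at least 20 counts in all 6 libraries, and 20 such paralogues were counted. Of the 20 paralogues, 12 had a positive and 8 a negative log2 fold change (apical over basal), with a median of 0.03 against 0.02 over all genes tested, and 0 passed the edgeR test (smallest adjusted p = 0.532; 2 had an unadjusted p under 0.05). Gfi1, the paralogue of Gfi1b, had 2442, 655 and 1563 counts in apical libraries and 341, 228 and 33 in basal libraries. These groups do not overlap, with a log2 difference of 2.52 and an SE of 1.01, which missed edgeR's threshold (adjusted p = 0.757). Galnt2, a paralogue of Galnt14, had the opposite sign, with 1148, 959 and 1250 counts in apical libraries and 1990, 2982 and 1701 in basal libraries. These groups do not overlap either, with a log2 fold change of -1.31 (SE 0.45, edgeR adjusted p = 0.532). Of the 20 paralogues, 3 (Gfi1, Tfcp2 and Abcc1) had every apical library above every basal one, and 1 (Galnt2) every basal library above. Over all genes tested these shares were 10.4% and 5.4%.

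**Figure D3:**
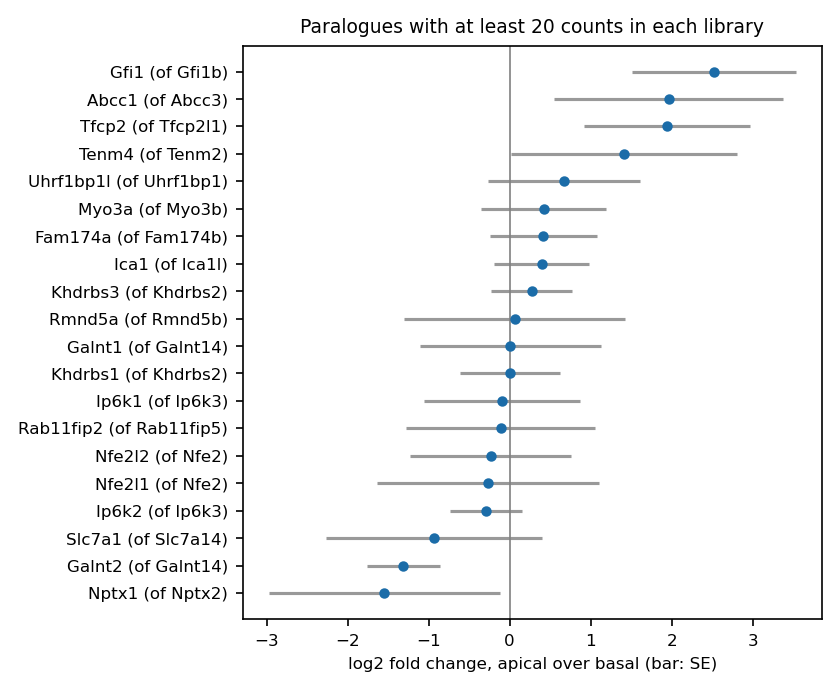
Log2 fold change (apical over basal) ± SE of the 20 paralogues of members that had at least 20 counts in all 6 libraries, each named with its member. They lie on both sides of 0, from -1.55 for Nptx1 to 2.52 for Gfi1, with a median of 0.03.

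With binding partners and pathway neighbours added, 62 genes were matched, 47 were tested and 30 of these had a positive log2 fold change, but 0 passed, with 4 at an unadjusted p under 0.05. In all, 51 of the 62 had basal counts, and 9 were at 0 in all libraries. Of the 62, only Pnmt and Gucy2f had apical counts and no basal counts, each in 1 apical library. Lin28a, Ovol1, A1cf and Slc25a47, paralogues of Lin28b, Ovol2, Rbm47 and Slc25a48, were at 0 in all 6 libraries.

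Other cilium genes are given beside Cfap45, Nme9 and Katnal2, the 3 members on a list of 124 genes of cilium assembly and movement. Of the other listed genes, 50 were in the fit, but 4 of them (Hydin, Ccdc114, Drc1 and Spag6) meet the counts of the rule, which fix their direction. Of the remaining 46, 35 (76.1%) had a positive log2 fold change, against 51.0% of all genes tested, with a median of 1.45 against 0.02. The edgeR test passed 0 of them, and 6 (13.0%) were higher in apical libraries at an unadjusted p under 0.05, against 3.88% of all genes tested. In 18 of the 46 (39.1%) every apical library was above every basal one, against 10.4% of all genes tested. Some of the 46 passed the filter on low counts through apical libraries alone, which fixes their direction. Ccdc103 had 149, 232 and 145 counts in apical libraries and 1, 0 and 0 in basal libraries. For Ttc29 these were 108, 93 and 603 against 1, 0 and 0. The shares of the 46 thus rest in part on genes close to the rule. On a list of intraflagellar transport and ciliary base genes, which holds no member, 33 of 41 tested (80.5%, against 51.0% of all genes tested) had a positive log2 fold change, with a median of 0.84. The edgeR test passed 0 of them, with 4 higher in apical libraries at an unadjusted p under 0.05, against 3.88% of all genes tested. Such shares were not particular to the cilium lists. A positive log2 fold change was found for 13 of 16 general hair cell markers tested (81.25%, median 1.22). It was found for 12 of 15 pillar and Deiters cell markers (80%, median 0.40) and 8 of 10 greater epithelial ridge and border cell markers (80%, median 1.79). Schwann cell markers had 0 of 13 and macrophage and leukocyte markers 1 of 12. Markers of multiciliated epithelia summed to 49.9, 53.1 and 93.6 CPM in apical libraries and 0.163, 41.8 and 18.3 CPM in basal libraries. Of the 10 matched, 7 were at 0 in all basal libraries and 5 (Mcidas, Gmnc, Ccno, Sntn and Pifo) at 0 in all 6 libraries. The others at 0 in all basal libraries were Hydin, which meets the counts of the rule, and Ccdc67, with 8 counts in apical replicate 3 alone. Dynlrb2 was the largest row of the sum in each apical library, with 764, 614 and 1089 counts there and 1, 307 and 31 in basal libraries.

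The 13 genes of the mirror rule had a median mean FPKM of 7.08 in basal libraries, and all 13 had a mean over 100 counts, as had 56 of the 91 apical genes. They include Dhh, a hedgehog ligand that Schwann cells secrete, with 0 counts in each apical library and 78, 947 and 726 in basal libraries. Adgre1, the F4/80 antigen of mouse macrophages, had 0 in each apical library and 227, 183 and 178 counts in basal libraries. Beside these, macrophage markers summed to 325, 370 and 164 CPM in apical libraries and 1461, 242 and 2076 CPM in basal libraries, and Schwann cell markers were higher in every basal library than in any apical one, as given above. What part these cells have in either list was not tested. The number of 13 was 82 without basal replicate 1, 47 without apical replicate 1 and 36 without basal replicate 2. The median ratio of the highest to the lowest CPM was 6.72 for the 13 genes among basal libraries, against 3.49 for the 91 genes among apical libraries. This ratio was not taken over other genes of the basal libraries, so 6.72 is not read as a trait of the 13. In log CPM, basal libraries correlated with each other at 0.522 to 0.627, and apical libraries at 0.706 to 0.815.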

How the data were processed

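RNA of 30 cells per library was sequenced, with 3 libraries per turn. Whole-number read counts per gene were deposited by the authors in 1 table of 35790 rows, per the file headers, with 32754 Ensembl and 3036 unannotated identifiers. The deposited FPKM values are the authors' own, as are the mean normalized counts per group (a normalized signal). The authors' deposited log2 fold changes run basal over apical, and their direction is read here only as a call. The authors' p-values are used only where named as theirs. Bowtie2 2.2.3 and TopHat2 2.0.12 are named in the submitters' processing notes. The sources used here do not give the build, annotation, counter, differential test or amplification. Per the labels' protocols, the library kit was NEBNext Ultra.

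Genes were chosen by counts of at least 20 in each apical library and 0 in each basal library. The genes, lists and tests were chosen with earlier results of these data known. Members were named by rank of CPM, smallest count, spread, list membership and GO class, which names 43. Other members were added to fill role groups after their values were seen, and role groups, paralogues and partners were assigned by hand from general knowledge. A paralogue is not reported here, and the counts of paralogues and partners leave it out. CPM used library totals. Ratios to the basal limit use 3 counts over the basal group.

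Counts were fitted with edgeR 4.0.16 in R 4.3.3 (filterByExpr, TMM, glmQLFit, glmQLFTest, apical over basal, Benjamini-Hochberg over 13507 genes, no covariate). SEs were derived from each log2 fold change and its F statistic. DESeq2 1.42.0 and limma 3.58.1 were alternatives, beside other thresholds, scalings and each library left out. Promoters are from RefSeq (GRCr8), matched by symbol. Tables used pandas 2.3.3 and numpy 2.4.6, plots matplotlib 3.10.9.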

Additional observations from a re-analysis of the deposited data

How the results depend on the processing

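The number of genes counted only in apical libraries, 91, was 46 with at least 50 counts per library and ran from 116 to 443 with each library left out. It was 1019 without basal replicates 2 and 3, the libraries of high Schwann cell sums, a choice made after seeing the data. Its other alternatives gave 63 to 136. Of basal-only genes, 13 by the main rule, there were 20 with at most 3 counts in the other turn and 13 to 82 with each library left out. Fewer libraries in the rule leave fewer conditions to meet, so these numbers can only grow. The share of counts in the 91 genes, 0.0654%, was 0.0564% to 0.0741% over its alternatives.

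The edgeR test called 0 genes. It called 8 with no filter on low counts, 28 in its bias-adjusted form and 0 to 2 with each library left out (2 without basal replicate 1). DESeq2 called 664, of which 393 were higher in apical and 271 higher in basal libraries. Both limma forms, voom and log2 FPKM with either pseudocount, called 0. The genes whose groups do not overlap numbered 2128, and 2888 to 4326 with each library left out, the most without basal replicate 1. For the cilium list, with the 4 genes that meet the counts of the rule, the 22 such genes higher in apical libraries became 24 to 30, and they numbered 22 under other scalings.

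With the replicate number as a replicate block, edgeR called 0 genes, with 567 at an unadjusted p under 0.05 against 811 without it. Same-numbered libraries correlated at -0.04, 0.0067 and 0.138 in their deviations from the group means, so the numbers were not taken to pair libraries, and not every library correlated best with its own number. How far depth shapes these lists was not tested. A basal count of 0 allows 0.0543 CPM over the group for counting error alone, and 17 of the 91 genes had a smallest apical count under 30. Libraries also differed in the share of well-counted genes listed at 0, as given above.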
